A study of Homo sapiens with 2 samples.

Results

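CYP24A1 and 4 further genes of vitamin D handling, VDR, CYP2R1, CYP27B1 and GC, were examined in HepG2 cells loaded with fatty acids. These 5 of the 60623 gene entries were chosen by their roles as activating hydroxylases, inactivating hydroxylase, receptor and plasma carrier, and the high CYP24A1 count in these same libraries was already known when they were chosen. The values of CYP24A1 are therefore a description, and nothing is supported with them. HepG2 is an established human hepatocellular carcinoma cell line, recorded as wild type. Both groups received 1 mM free fatty acids (FFA, oleic and palmitic acid bound to albumin) for 24 h. The FFA + 9-cis-RA group also received 10 μM 9-cis-retinoic acid, which activates the retinoid X receptors (RXR) and the retinoic acid receptors. The paper's methods place 24 h of 9-cis-RA after the FFA treatment, whereas its results describe co-treatment. RNA was sequenced from 1 library per group, and a library without FFA was not analysed here. The recorded treatments name no vitamin D compound, and the medium of both groups held fetal bovine serum.

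Vitamin D is made active by successive hydroxylations. Liver enzymes such as CYP2R1 and CYP27A1 make 25-hydroxyvitamin D, the circulating form, and CYP27B1, best known from the kidney, makes the hormone calcitriol. Calcitriol binds the vitamin D receptor VDR, which sits on DNA with RXR as its partner, and CYP24A1 is a mitochondrial enzyme that breaks down both calcitriol and 25-hydroxyvitamin D and is itself a classical VDR target. GC, the vitamin D binding protein, is secreted by hepatocytes and carries these metabolites in plasma.

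The FFA library held 60821539 counts and the FFA + 9-cis-RA library 57669670. Each log2 fold change compares the FFA + 9-cis-RA library with the FFA library, after counts were divided by size factors and a pseudocount of 1 was added, and 20431 genes passed the minimum of 10 counts in all. No test was possible, because each group has a single library. The 95% intervals are exact counting intervals for these 2 libraries, cover counting error only and say nothing of the spread between cultures. The median log2 fold change of all compared genes was -0.020, and the central 95% lay between -1.35 and 1.12. All 9 hepatocyte markers were detected, with 278 to 296345 counts per library. TTR had the fewest, with 341 in FFA and 278 in FFA + 9-cis-RA. The summed level of all 9 was 19684 CPM (counts scaled to a common library total) in FFA and 17061 CPM in FFA + 9-cis-RA. Of 14 markers of other cell types, 5 (PTPRC, LRAT, AQP2, UMOD and SI) had 0 counts in both libraries. The summed level of all 14 was 4.65 CPM in FFA and 3.26 CPM in FFA + 9-cis-RA. Most of it came from the endothelial marker VWF, with 184 and 118 counts (3.03 and 2.05 CPM). PECAM1, another endothelial marker, had 52 and 29 counts. As a check of the treatment label, the retinoid response genes CYP26A1 (4 and 709 counts in FFA and FFA + 9-cis-RA), RARB (6 and 46) and DHRS3 (1126 and 1999) were each higher under the 9-cis-RA label.

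CYP24A1 counts stood at 4041 in FFA and at 31195 in FFA + 9-cis-RA. Normalized for library size, these were 4002 and 31495 counts, a 7.87-fold higher value with a counting interval of 7.61 to 8.13. The log2 fold change was 2.98 (2.93 to 3.02), far from the median of all compared genes. The gene (ENSG00000019186) lies on the minus strand of chromosome 20 from 54153446 to 54173986 in GRCh38, with 3988 exonic bases, and none of these overlap the exons of another annotated gene. Per length, its level was 48.3 TPM (counts per exonic base, scaled to a common total) in FFA and 404 TPM in FFA + 9-cis-RA, which ranked 2894 and 216 among all genes of each library. It took 0.00664% of all counts in FFA and 0.0541% in FFA + 9-cis-RA. In bulk RNA, fewer cells expressing a gene and less RNA of it per cell cannot be told apart.

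**Figure D1:**
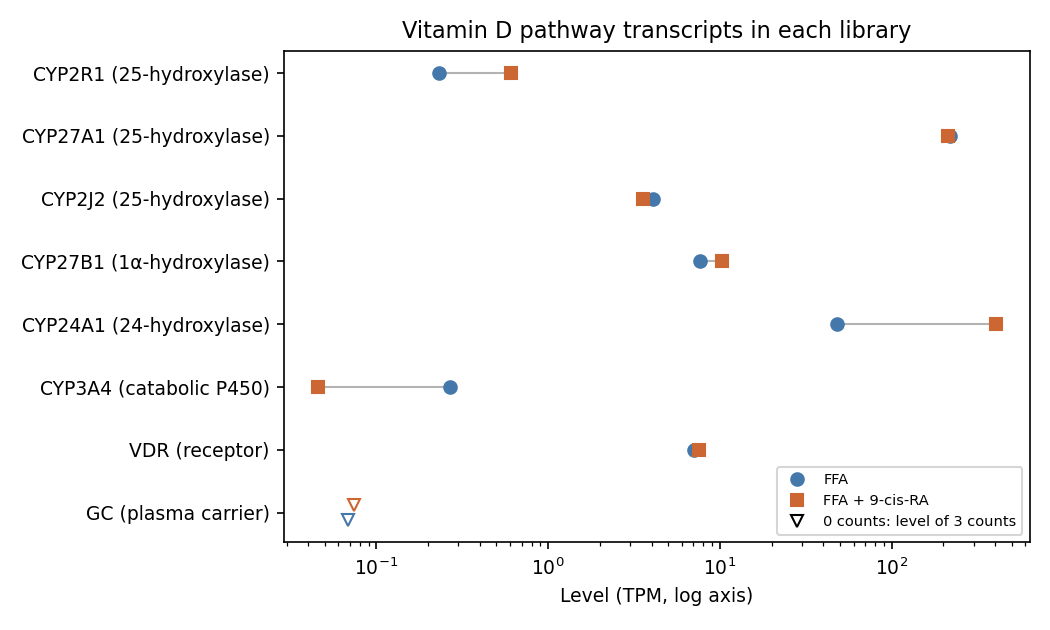
Level of 8 vitamin D pathway genes in the FFA library (circles) and the FFA + 9-cis-RA library (squares), in TPM on a log axis, with 1 library per group and no error bar. CYP24A1 lies at 48.3 and 404 TPM, VDR at nearly one position, and GC, with 0 counts in both libraries, is drawn as open triangles at the level that 3 counts would give.

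Among all genes, 16 of the 20431 compared had a higher log2 fold change than CYP24A1. Most genes with so large a difference had few counts: of the 13306 genes that reached 100 normalized counts in either library, 2 stood above CYP24A1. Its difference of 27493 normalized counts ranked 4 among the differences of all genes. Of 19 genes with a log2 fold change above 1 that reached 1000 normalized counts in a library, the next highest was SLC51B, a subunit of a bile acid and steroid exporter named after its value was seen, with a log2 fold change of 1.88.

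**Figure D2:**
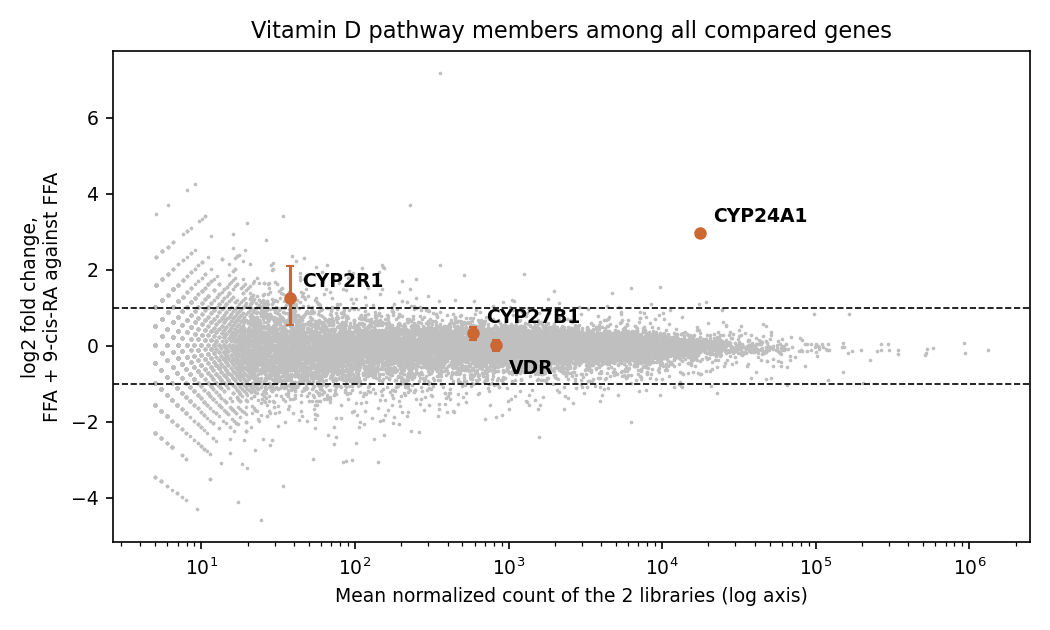
Log2 fold change (FFA + 9-cis-RA against FFA) against the mean normalized count of both libraries on a log axis, for all 20431 compared genes (grey) and the 4 members that could be compared (orange, with 95% counting intervals). CYP24A1 stands at 2.98 at a mean count far above that of the other genes past 2, CYP2R1 at 1.26 among genes of few counts, and the dashed lines mark 1 and -1.

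The 5 genes of at least 100 normalized counts in a library with a log2 fold change nearest to that of CYP24A1 were ALPG, SAMD11, HOXC12, NPHS1 and SPECC1. Likeness here is the absolute difference in log2 fold change over 2 libraries only. ALPG, an alkaline phosphatase with near-identical paralogs, had 32 counts in FFA and 420 in FFA + 9-cis-RA, a log2 fold change of 3.70 (3.22 to 4.31) and a distance of 0.72 from CYP24A1. The other 4 lay below CYP24A1, at log2 fold changes from 2.08 for SPECC1 to 2.12 for SAMD11 and distances from 0.85 to 0.90. NPHS1, which encodes the kidney filter protein nephrin, had 56 and 241 counts, and HOXC12, a homeobox gene, had 135 and 579. CYP24A1 had more counts than any of these genes in both libraries.

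The genes around CYP24A1 on chromosome 20 did not share its difference. Within 500 kb of the gene body lay 11 other entries, of which 5 had 0 counts in both libraries and 4 could be compared. PFDN4, a subunit of the chaperone prefoldin 34.1 kb away, had 2264 counts in FFA and 2595 in FFA + 9-cis-RA, with a log2 fold change of 0.22 (0.14 to 0.31). BCAS1, 82.9 kb away, had 522 and 511 counts, with a log2 fold change of -0.0031 (-0.18 to 0.18). The nearest entry, the unnamed transcript ENSG00000286587 at 4.43 kb, had 9 and 14 counts (0.61, -0.65 to 2.05). ENSG00000287886, at 412 kb, had 17 and 12 counts (-0.44, -1.67 to 0.68). The intervals of CYP24A1 and of each of these 4 entries did not overlap, but they cover counting error only. CYP24A1 was chosen with its high count known, so its distance from these entries supports nothing. ENSG00000286587 and ENSG00000287886 also had few counts.

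The other members were compared in the same way. Of the 5 members, 4 passed the count minimum, all 4 had a higher normalized count in FFA + 9-cis-RA, and their median log2 fold change was 0.79. CYP24A1 and CYP2R1 exceeded 1, as did 3.37% of all compared genes, and no member was below -1, as were 4.90%. The counting interval lay above 0 for CYP24A1, CYP2R1 and CYP27B1, as for 22.5% of compared genes, below 0 for none, as for 25.7%, and held 0 for VDR. CYP24A1 was among the genes that led to the choice of these members, so these counts support nothing about them.

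VDR, the receptor, had 837 counts in FFA and 827 in FFA + 9-cis-RA, which became 829 and 835 normalized counts. Its log2 fold change was 0.010, with an interval from -0.13 to 0.15. The counts therefore bound a difference between these libraries at about 0.15 in either direction on the log2 scale, as far as counting error goes. The gene (ENSG00000111424) spans 47841537 to 47943048 on the minus strand of chromosome 12, with 5674 exonic bases. Its level per length was 7.03 TPM in FFA and 7.54 TPM in FFA + 9-cis-RA.

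CYP27B1, the enzyme that makes calcitriol, had 527 counts in FFA and 649 in FFA + 9-cis-RA. Its log2 fold change was 0.33 (0.16 to 0.50). The gene (ENSG00000111012) lies at 57762334 to 57768986 on the minus strand of chromosome 12 with 3284 exonic bases, and 3.26% of them overlap METTL1 on the same strand, where reads were not assigned. Its level was 7.65 TPM (7.01 to 8.33) in FFA and 10.2 TPM (9.45 to 11.04) in FFA + 9-cis-RA. In FFA this interval overlapped that of VDR (6.56 to 7.52 TPM), so the order of these neighbours was within counting error, whereas in FFA + 9-cis-RA CYP27B1 lay above VDR (7.03 to 8.07 TPM).

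CYP2R1, the main microsomal vitamin D 25-hydroxylase, had 22 counts in FFA and 53 in FFA + 9-cis-RA. The normalized value was 2.46-fold higher (1.47 to 4.24), a log2 fold change of 1.26 (0.55 to 2.08). The interval is wide because the value rests on 75 counts in all, and its lower end lies below the threshold of 1. Of the 1522 compared genes with 50 to 100 counts over both libraries, a range set after the CYP2R1 count was seen, 74 (4.86%) had a log2 fold change above 1 and 108 were below -1. Per length CYP2R1 was at 0.232 TPM in FFA and 0.607 TPM in FFA + 9-cis-RA. The gene (ENSG00000186104) lies on the minus strand of chromosome 11 from 14877440 to 14892252, with 4516 exonic bases and no exonic overlap.

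GC (ENSG00000145321, minus strand of chromosome 4 from 71741696 to 71804041, 2095 exonic bases) had 0 counts in each library. Such a zero still permits as many as 3 counts, a CPM of 0.0493 in FFA and 0.0520 in FFA + 9-cis-RA. Per length, 3 counts equal 0.0682 and 0.0740 TPM. The transcript of the plasma carrier was thus not detected at this depth, while ALB, a member of the same gene family, had 186609 and 112866 counts. The 9 hepatocyte markers were all detected but ranged widely in counts. TTR had the fewest of them, with 341 in FFA and 278 in FFA + 9-cis-RA. No fold change was computed for GC.

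In order of level per length, the members in FFA were CYP24A1 (48.3 TPM), CYP27B1 (7.65 TPM), VDR (7.03 TPM), CYP2R1 (0.232 TPM) and GC (0 TPM). In FFA + 9-cis-RA the order was the same. The TPM ratio of CYP24A1, the inactivating enzyme, to CYP27B1, the activating enzyme, was 6.31 in FFA and 39.6 in FFA + 9-cis-RA. The TPM ratio of CYP24A1 to VDR was 6.87 and 53.7. These ratios compare transcripts, and enzyme amounts and vitamin D metabolites were not analysed here.

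The most abundant vitamin D hydroxylase of the FFA library was not a member. CYP27A1, a mitochondrial enzyme of bile acid synthesis that also 25-hydroxylates vitamin D, had 13693 counts in FFA and 12274 in FFA + 9-cis-RA, a log2 fold change of -0.13 (-0.17 to -0.095). Its level was 219 and 213 TPM, which was 942 times that of CYP2R1 in FFA and 351 times in FFA + 9-cis-RA. The TPM ratio of CYP24A1 to CYP27A1 was 0.221 in FFA and 1.90 in FFA + 9-cis-RA, so that the order of these mitochondrial enzymes differed between the libraries.

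Of 8 further hydroxylases and conjugating enzymes, 6 could be compared, 2 were higher and 4 lower, and the median log2 fold change was -0.21. SULT2A1, a sulfotransferase of steroids and bile acids, had 18439 counts in FFA and 8536 in FFA + 9-cis-RA, a log2 fold change of -1.08 (-1.12 to -1.05). CYP3A4, which can inactivate vitamin D metabolites, had 19 and 3 counts, which gave a log2 fold change of -2.30 (-5.03 to -0.87). It has near-identical paralogs, and reads that mapped to several places were not counted. DHCR7, which uses up the vitamin D precursor 7-dehydrocholesterol in cholesterol synthesis, had 11914 and 14525 counts, which gave a value of 0.31 (0.28 to 0.35). UGT1A4 had 0 counts in both libraries, with 63.9% of its exonic bases shared with other UGT1A entries on the same strand, and UGT1A3 was not analysed here.

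Promoter sequence was examined for some of these genes because VDR, RXR and retinoic acid receptors bind pairs of short hexamers. Windows of the 250 bases upstream of RefSeq start sites in GRCh38.p14 were searched on both strands for the hexamer AGGTCA, for its variant AGTTCA, for its variant GGGTCA and for its variant GGTTCA. At least 1 of these 4 words was present in 33.8% of all 35116 windows. Among the members only CYP2R1 had windows, so the promoters of CYP24A1, VDR, CYP27B1 and GC were not examined. Of the 86 genes of the vitamin D lists, 72 had a window. The sequences of CYP2R1, which was higher in FFA + 9-cis-RA, and of CYP3A4 and SULT2A1, which were lower, are printed 5′ to 3′ on the coding strand, with capitals marking the hexamers on either strand. All 3 genes lie on the minus strand, and the windows are chr11:14892232-14892481 for CYP2R1, chr7:99784185-99784434 for CYP3A4 and chr19:47886316-47886565 for SULT2A1.
CYP2R1: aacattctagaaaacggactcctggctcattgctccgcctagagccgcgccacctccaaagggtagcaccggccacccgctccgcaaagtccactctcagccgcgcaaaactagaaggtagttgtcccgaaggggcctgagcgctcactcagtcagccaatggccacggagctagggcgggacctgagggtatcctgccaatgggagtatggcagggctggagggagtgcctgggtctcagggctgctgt
CYP3A4: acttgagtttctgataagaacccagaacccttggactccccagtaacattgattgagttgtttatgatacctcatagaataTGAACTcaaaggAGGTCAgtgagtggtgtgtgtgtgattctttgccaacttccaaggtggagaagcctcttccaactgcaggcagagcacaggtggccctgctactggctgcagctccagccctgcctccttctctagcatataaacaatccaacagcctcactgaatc
SULT2A1: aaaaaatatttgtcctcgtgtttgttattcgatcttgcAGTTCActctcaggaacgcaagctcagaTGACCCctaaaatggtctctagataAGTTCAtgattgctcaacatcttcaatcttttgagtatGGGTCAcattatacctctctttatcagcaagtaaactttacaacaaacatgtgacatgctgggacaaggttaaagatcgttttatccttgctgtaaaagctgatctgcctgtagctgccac

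The CYP2R1 window held none of the 4 words, which says only that these letters are not in it. The windows of 2 other CYP2R1 start sites, chr11:14891672-14891921 and chr11:14892444-14892693, held 1 and 2 single hexamers. The CYP3A4 window held an everted pair with 6 bases between, beginning 169 bases upstream of the start, an arrangement (ER6) found in 0.0342% of all windows. The SULT2A1 window held 4 single hexamers, at 212, 184, 159 and 121 bases upstream, and none of the paired arrangements searched. These were direct repeats with 1 to 5 bases between, ER6 and inverted pairs without a gap, and other pairs were not searched. The windows of all 72 list genes that had one were searched in this way, and CYP3A4 alone held such a pair. The ER6 share is per window and was not set against a search of this size. Direct repeats with 3 bases between (DR3), the arrangement best known for VDR with RXR, were in 0.0655% of all windows and in none of the printed ones. These matches describe letters, not binding.

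Redox partners were considered by enzyme. Mitochondrial hydroxylases such as CYP24A1, CYP27A1 and CYP27B1 draw electrons through FDXR and FDX1, and microsomal ones such as CYP2R1 through POR. Of 6 redox partners compared, 4 were higher and 2 lower in FFA + 9-cis-RA, with a median log2 fold change of 0.13. POR had 21786 counts in FFA and 30308 in FFA + 9-cis-RA, a log2 fold change of 0.50 (0.48 to 0.53). FDXR, ferredoxin reductase, had 6699 and 4088 counts (-0.68, -0.74 to -0.63). FDX1, its ferredoxin, had 1680 and 1785 counts (0.12, 0.018 to 0.21). FDXR was thus lower in the library in which CYP24A1 was higher. CYB5R3 had 14819 and 16179 counts (0.15) and CYB5A 5569 and 7006 (0.36), both of the cytochrome b5 system. FDX2, with 17 and 6 counts (-1.34, -3.11 to -0.064), shares 70.9% of its exonic bases with other entries on the same strand. FDXR and FDX1 were chosen for naming after their values were seen.

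Genes of uptake differed little where they were abundant. LRPAP1, a chaperone of the endocytic receptors, had 6549 and 6698 counts (0.060, 0.011 to 0.11), DAB2, an endocytic adaptor, 4824 and 5006 (0.081, 0.024 to 0.14), and AMN, the membrane anchor of cubilin, 4056 and 3921 (-0.021, -0.085 to 0.042). CUBN, cubilin itself, had 9 and 3 counts, at a log2 fold change of -1.30, and the interval from -4.08 to 0.45 held 0. Of 5 listed genes 4 could be compared, 2 higher and 2 lower, with a median of 0.019.

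**Figure D3:**
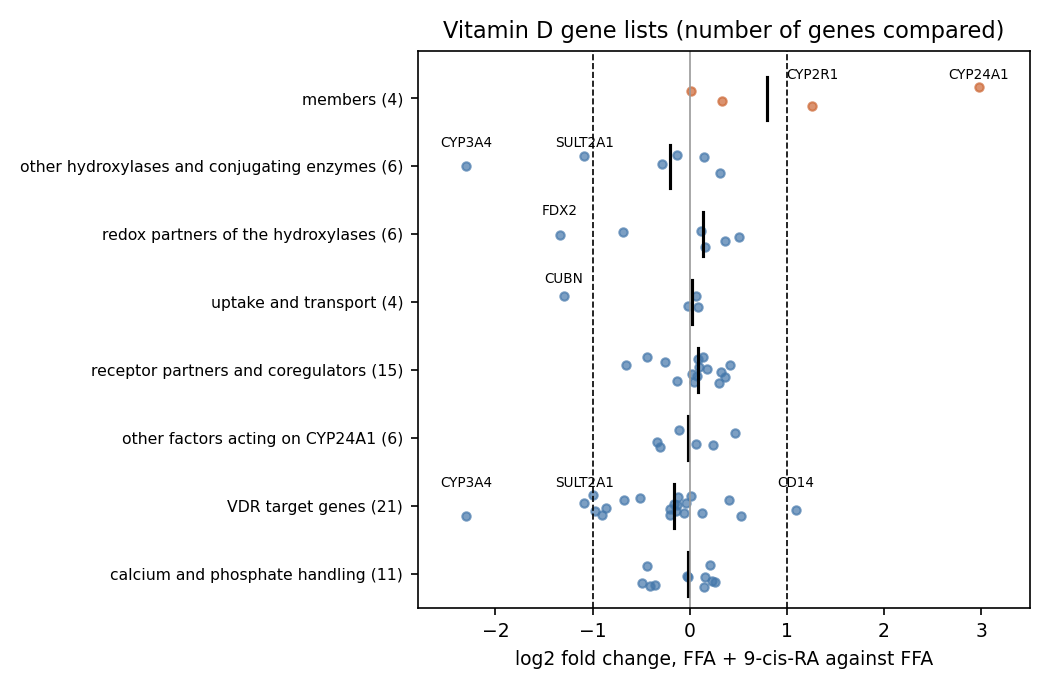
Log2 fold change (FFA + 9-cis-RA against FFA) of each compared gene in the members and in 7 vitamin D gene lists, with the number compared in brackets, 1 point per gene and a black bar at each median. Genes past 1 or -1 (dashed) are named, and the list medians lie between -0.21 and 0.13. The members' median of 0.79 is over 4 genes chosen with the high CYP24A1 count known, so its distance from the lists supports nothing.

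The partners of VDR differed between the libraries in both directions. RXRA, described as the main RXR of liver, had 8291 counts in FFA and 5978 in FFA + 9-cis-RA, a log2 fold change of -0.44 (-0.49 to -0.40). RXRB had 2162 and 2608 counts (0.30, 0.22 to 0.38), and RXRG had 7 and 4. Per length, RXRA was at 32.7 TPM in FFA and 25.6 TPM in FFA + 9-cis-RA, and RXRB at 26.3 and 34.4 TPM. RXRA was thus lower and RXRB higher, and the 3 RXR genes were named after their values were seen. Of 15 partners and coregulators compared, 11 were higher and 4 lower, none was past 1 or -1, and the median was 0.083. PDIA3, a protein disulfide isomerase also described as a membrane calcitriol binding protein, had 26100 and 21471 counts (-0.25, -0.28 to -0.23). BAZ1B, of a VDR-bound chromatin remodelling complex, had 14898 and 14905 (0.028), and SMARCA4, a remodelling ATPase, had 8497 and 8589 (0.043).

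Other factors known to act on CYP24A1 transcription lay on both sides of 0. Of 6 compared, 3 were higher and 3 lower, none past 1 or -1, with a median of -0.022. The interval lay above 0 for 2, below 0 for 3 and held 0 for 1. YBX1, a repressor, had 51860 and 47043 counts (-0.11), CEBPB, a leucine zipper activator, 4249 and 4937 (0.24), and SP1, a GC-box factor, 4110 and 4230 (0.069). The other 3 factors, named after their values were seen, lay further from 0. NR1I2, the xenobiotic receptor PXR, had 1508 and 1173 counts (-0.33, -0.45 to -0.22), ETS1 had 526 and 418 (-0.30, -0.49 to -0.12), and NR1I3, the receptor CAR, had 13 and 18 (0.47, -0.61 to 1.65).

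The other VDR target genes were more often lower than higher. Of 33 listed, 7 had 0 counts in both libraries and 21 could be compared, of which 5 were higher and 16 lower in FFA + 9-cis-RA. Their median log2 fold change was -0.16, against -0.020 for all compared genes. The interval lay above 0 for 3 of the 21 and below 0 for 11, against 22.5% and 25.7% of all compared genes. These shares were not matched for counts. Intervals are narrower for abundant genes, several of which are in this list, which can raise both shares. Whether VDR targets lean to either side was not tested, and these shares do not show it. Many of these targets are known from other tissues, and the list holds CYP3A4 and SULT2A1 as well. CD14, the endotoxin co-receptor and a VDR target of myeloid cells, had 9 counts in FFA and 20 in FFA + 9-cis-RA, which put the log2 fold change at 1.10 and its interval from -0.020 to 2.50, holding 0. CD68, a macrophage marker, had 5 and 15 counts, PTPRC had 0 in both, and the part of such cells in the CD14 value was not tested.

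SPP1, osteopontin, a classical VDR target of bone, had 158202 counts in FFA and 82857 in FFA + 9-cis-RA, a log2 fold change of -0.91 (-0.92 to -0.89). ORM1, an acute-phase protein of hepatocytes, had 22839 and 19449 counts (-0.20, -0.23 to -0.18). SEMA3B, a secreted semaphorin, had 14667 and 19037 (0.40, 0.37 to 0.44). SPP1 and ORM1 were thus lower and SEMA3B was higher in FFA + 9-cis-RA. Among the 9 hepatocyte markers, AFP had 273242 counts in FFA and 134862 in FFA + 9-cis-RA (-0.99) and ALB had a log2 fold change of -0.70, while FGB was at 0.84, and 4 markers were higher and 5 lower. The part of these hepatocyte marker differences in the values of SPP1, ORM1 and SULT2A1 was not tested.

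Calcium and phosphate genes were spread around 0. Of 15 listed, 11 could be compared, 5 higher and 6 lower, none past 1 or -1, with a median of -0.013. FGFR4, an FGF receptor of liver, had 37255 and 35883 counts (-0.027), ATP2A2, the calcium pump of the endoplasmic reticulum, 14976 and 16249 (0.15), and STC2, a secreted stanniocalcin, 14587 and 14183 (-0.013). Taking the 7 lists together with each gene once, 67 genes could be compared, 32 higher and 35 lower, with a median of -0.021. Of these 67, 1 was above 1 and 4 were below -1, against 3.37% and 4.90% of all compared genes. None of these 67 genes had a log2 fold change as high as that of CYP24A1, the highest being CD14.

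CYP24A1 was also set beside the other cytochrome P450 genes. Of 55 protein-coding P450 genes, 13 had 0 counts in both libraries and 35 could be compared, with a median log2 fold change of -0.064. Of these 35, 4 were above 1 and 3 below -1, against 3.37% and 4.90% of all compared genes. The 4 were the members CYP24A1 and CYP2R1, the label check gene CYP26A1, and CYP2S1. The high CYP24A1 count was known beforehand, so this share supports nothing about P450 genes. CYP24A1 ranked 3 of the P450 genes by TPM in FFA, after CYP27A1 and CYP2W1, and ranked 1 in FFA + 9-cis-RA. Its share of the summed P450 level was 9.73% in FFA and 47.1% in FFA + 9-cis-RA, while the share of CYP27A1 was 44.1% and 24.8%. The summed level of all P450 genes was 496 TPM in FFA and 860 TPM in FFA + 9-cis-RA. Without CYP24A1 it was 448 and 455 TPM, so CYP24A1 made up nearly all of the difference.

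Among the other P450 genes with the highest levels, CYP2W1, a P450 of fetal gut and tumours, had 84.4 TPM in FFA and 56.6 TPM in FFA + 9-cis-RA. The fatty acid hydroxylases CYP4F3 (12.9 and 23.9 TPM) and CYP4F12 (10.96 and 17.9 TPM) were higher and CYP4F11 (18.2 and 17.0 TPM) was slightly lower, and these 3 are similar in sequence, so reads shared between them were not counted. CYP27B1 ranked 11 of the P450 genes in both libraries, and CYP2R1 ranked 31 in FFA and 27 in FFA + 9-cis-RA.

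**Figure D4:**
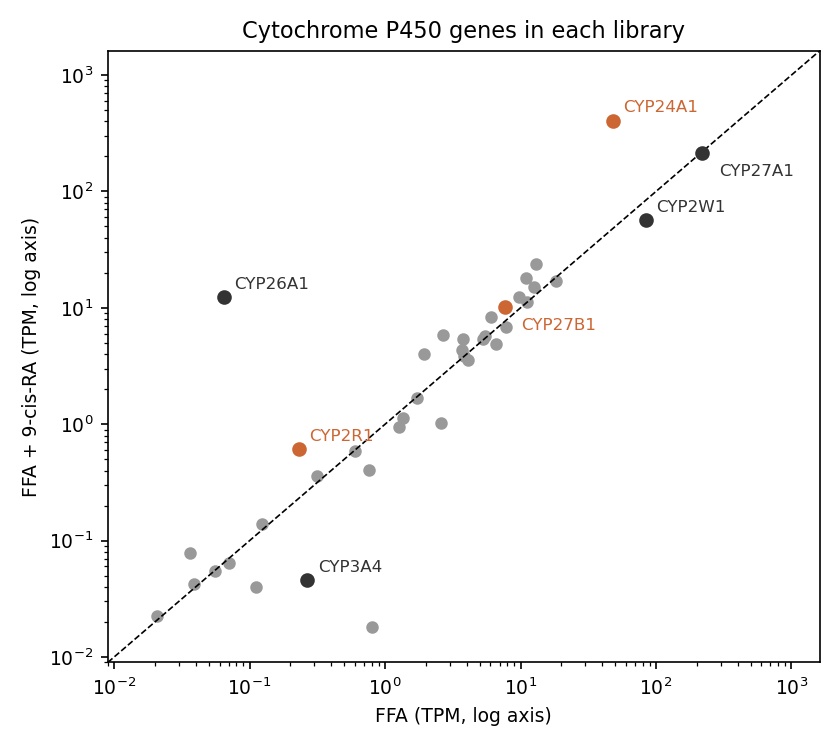
Level of each protein-coding P450 gene with counts in both libraries (39 genes), in TPM on log axes, FFA on the horizontal and FFA + 9-cis-RA on the vertical axis, with equal levels on the dashed line. CYP24A1 and CYP26A1 lie far above the line, CYP27A1 lies on it at 219 and 213 TPM, and members are in orange.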

How the data were processed

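RNA sequencing of HepG2 cells was analysed from 2 libraries, 1 per group, of poly(A) RNA in stranded libraries. The counts deposited by the authors are unnormalized fragments per gene from featureCounts version 2.0.1 on GRCh38, with the reverse strand setting (2) and both mates required to map. Reads that mapped to several places or overlapped several genes were not counted. The aligner and its version are not given in the sources used here. Gene positions and symbols came from GENCODE and a gene name table, with 58516 of 60623 entries matched to GENCODE and 42005 with a symbol.

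Counts were scaled with DESeq2 version 1.42.0 size factors in R version 4.3.3 (edgeR version 4.0.16 for the TMM alternative), and no model was fitted, as there are no replicates. Log2 fold changes used a pseudocount of 1, which understates changes of low counts, a minimum of 10 counts over both libraries and a threshold of 1. TPM was computed from the counts and exonic lengths. The 95% Clopper-Pearson intervals (Poisson for TPM) and the floor of 3 counts (0.0493 and 0.0520 CPM) were computed in Python 3.11.15 with scipy 1.17.1, and they cover counting error only. Steps were tested on simulated data.

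The members and lists were chosen with earlier results of these data known. Named genes were the members, list genes past the threshold with the 3 most abundant of each list, the 5 genes nearest to CYP24A1 in log2 fold change, genes within 500 kb, the 5 highest P450 genes of each library and 3 retinoid genes. Others are said to be named after their values were seen, or are background beside a result. Alternatives were other scalings, pseudocounts, count minimums, trend removal and the whole interval past the threshold.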

Additional observations from a re-analysis of the deposited data

How the results depend on the processing

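CYP24A1 stayed between 2.97 and 3.03 on the log2 scale over 6 alternatives, with 3.02 under total-count scaling and 3.03 after removal of a length trend as the values that left its counting interval. CYP2R1 lay between 1.13 and 1.37, CYP27B1 between 0.33 and 0.40 and VDR between 0.010 and 0.059, and GC gave no value under any. When the whole interval had to pass 1, 1 member (CYP24A1) passed in place of 2. Genes above 1 numbered 689 and genes below -1 numbered 1002 as reported, but 341 and 594 with a pseudocount of 5, 3771 and 2493 with no count minimum, 153 and 361 with at least 50 counts, and 79 and 190 with the whole interval past the threshold. Vitamin D list genes past 1 or -1 numbered 5, but 2 with a pseudocount of 5, 9 with no count minimum, 1 with at least 50 counts and 1 with the whole interval, where SULT2A1 was left. The last 2 settings hold fewer genes by construction. No replicate could be left out, since each group has 1 library. No paired analysis was possible because each group has 1 library. The spread between cultures is unknown, so none of these values tests the treatment, and depth limits the values of genes with few counts, such as CYP2R1, CYP3A4, CD14, CUBN, FDX2 and RXRG.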
